A study of Mus musculus with 2 samples.

Results

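Osteoclasts, the cells that resorb bone, form from myeloid precursors under signals from neighbouring stromal cells, and 4 genes of such signals were followed here in single cells of mouse bone after chemotherapy: Tnfsf11 (encoding RANKL), Tnfrsf11b (encoding OPG), Csf1 and Il34. They were chosen by name, as the genes of the main osteoclast-forming ligands and of the RANKL decoy, and all 4 were among the 21905 genes listed for both libraries. One library came from 12-week-old female mice given vehicle (Veh) and the other from 12-week-old female mice given doxorubicin (Doxo) at 10 mg/kg, a DNA-damaging anthracycline, with cells taken at 96 h. Both held collagenase-released cells of femurs and tibias from which cells carrying CD45, CD71, Ter119 or, per the labels, CD31 had been depleted, so that stromal cells were enriched and osteoclasts and their precursors were mostly removed. The number of mice behind each library was not given in the sources used here. With 1 library per condition there was no replicate, no test of the treatment was possible and no p-value is given.

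RANKL binds RANK on osteoclast precursors and drives them to differentiate, while OPG is a secreted decoy receptor that binds RANKL and keeps it from RANK. CSF1 and IL-34 are a pair of ligands that share the receptor CSF1R, through which the precursors survive and proliferate. In marrow, the stromal cells that surround sinusoids and produce much CXCL12 (CXCL12-abundant reticular, or CAR, cells) are a known source of CSF1, and osteocytes, hypertrophic chondrocytes and marrow stromal cells have each been named as sources of RANKL.

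Each library held 2488 cells. The depth was 24859710 UMIs (unique molecular identifiers, each standing for 1 captured transcript molecule) in Veh and 20792013 in Doxo, with medians of 8693 and 7347.5 per cell. The cells fell into 6 classes named by their marker genes and 1 unnamed cluster. CAR-like cells numbered 368 in Veh and 428 in Doxo, bone and cartilage fibroblast-like cells 1080 and 1343, arteriolar and endosteal fibroblast-like cells 438 and 264, osteoblast-like cells 217 and 127, chondrocyte-like cells 238 and 202, and endothelial-like cells 103 and 69. The unnamed cluster, led by Clic5 and Rab37, held 44 and 55 cells. All 8 markers listed for CAR, chondrocyte and endothelial cells met the rule in their class, against 7 of 8 for the arteriolar and endosteal fibroblasts, 6 of 8 for osteoblasts and 5 of 8 for the bone and cartilage fibroblasts. Endothelial-like cells were present although the labels name CD31 among the depleted markers, which the study's methods do not, and Ptprc, which encodes CD45, had a UMI in 19 cells in Veh and 14 in Doxo. There were 4 barcodes that occurred in both libraries. Levels are UMIs of a gene per 1000000 UMIs of the class (CPM), with exact Poisson 95% intervals, and ratios between libraries are log2 ratios with conditional binomial 95% intervals. All intervals and floors cover counting error only and not the spread between mice. Because only transcript ends were read, CPM was compared between cells for a gene and not between genes.

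On GRCm38, Tnfsf11 lies on chromosome 14 from 78277445 to 78308043, Tnfrsf11b on chromosome 15 from 54250619 to 54278484, Csf1 on chromosome 3 from 107741048 to 107760469 and Il34 on chromosome 8 from 110741829 to 110805924, each on the minus strand. Values are for whole genes, so the 5 distinct 3′ ends annotated among the 6 coding transcripts of Csf1 were not separated. Il34 is overlapped on the opposite strand by the antisense genes Gm15894 and Gm15895, and whether counting used strand was not stated. Promoter sequence was at hand for only 2 of the 4 genes, Tnfsf11 and Csf1, so no tie between sequence and level can be read from it. The 250 bases before the annotated start of each are shown 5′ to 3′ on the gene's strand (RefSeq, GRCm38.p6), chr14:78308044-78308293 for Tnfsf11 and chr3:107760470-107760719 for Csf1. Capitals mark the motif matches found on either strand among TATAA, the kappa-B consensus of 10 bases and the AP-1 motif TGANTCA.
Tnfsf11: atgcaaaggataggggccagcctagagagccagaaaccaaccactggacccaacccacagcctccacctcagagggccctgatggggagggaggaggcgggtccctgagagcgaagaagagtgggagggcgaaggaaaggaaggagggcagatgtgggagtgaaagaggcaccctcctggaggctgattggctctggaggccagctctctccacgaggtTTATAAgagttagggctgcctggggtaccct
Csf1: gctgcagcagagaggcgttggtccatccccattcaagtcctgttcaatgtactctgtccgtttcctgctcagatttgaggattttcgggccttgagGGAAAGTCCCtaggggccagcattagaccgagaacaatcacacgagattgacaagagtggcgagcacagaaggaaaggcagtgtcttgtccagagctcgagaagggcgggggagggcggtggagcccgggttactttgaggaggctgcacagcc
The Tnfsf11 promoter held TATAA on each strand in 2 overlapping matches, which begin 31 bases before the start, and neither of the other motifs. In the Csf1 promoter the kappa-B consensus was read on the opposite strand, beginning 154 bases before the start, with neither TATAA nor TGANTCA. Of 32851 promoter windows in the same table, 22.8% held TATAA, 0.14% the kappa-B consensus and 6.75% TGANTCA. A match is a run of letters and not a measured binding site.

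Tnfsf11, the gene of the ligand, was mainly a CAR-like transcript in both libraries. The CAR-like cells held 385 of its UMIs in Veh, a level of 153 CPM (interval 138 to 169), and 308 in Doxo, 91.4 CPM (81.5 to 102). These were 76.5% and 80.4% of all Tnfsf11 UMIs of the library, from classes of 368 and 428 cells. The osteoblast-like cells came next with 67 UMIs and 72.0 CPM in Veh and 25 UMIs and 48.8 CPM in Doxo, below the CAR-like level by a log2 ratio of 1.08 (0.71 to 1.48) and 0.88 (0.32 to 1.56). The osteoblast-like level in Veh was 8.55 to 10.2 CPM without called doublets, with the members among the variable genes or with 20 principal components. In the other classes the level was low. Chondrocyte-like cells held 25 UMIs (5.28 CPM) in Veh and 10 (3.27 CPM) in Doxo, arteriolar and endosteal fibroblast-like cells 14 (3.27 CPM) and 22 (10.3 CPM), and bone and cartilage fibroblast-like cells 12 (1.08 CPM) and 17 (1.58 CPM). No Tnfsf11 UMI was found in the endothelial-like cells of either library, which allows a level of up to 4.28 CPM in Veh and 8.57 CPM in Doxo. The chondrocyte-like and arteriolar and endosteal fibroblast-like levels in Veh did not differ beyond their counting error (0.67, −0.31 to 1.75), and in Doxo the neighbours from the chondrocyte-like cells downward did not.

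Within the CAR-like class Tnfsf11 was unevenly spread over cells. It had a UMI in 135 Veh cells (36.7%) and 169 Doxo cells (39.5%), where a cell's median depth was 6228.5 and 7317 UMIs. Thinned to 2000 UMIs, 65 of 351 cells (18.5%) and 68 of 417 (16.3%) had one, against 0 of the endothelial-like cells at any depth, whose median depths were 6326 and 4628. The most in a single cell was 18 UMIs in Veh and 17 in Doxo, and 23 and 8 cells held at least 5. The 10 cells with most Tnfsf11 carried 32.7% of the class's UMIs in Veh and 21.1% in Doxo, so the Veh level rested more on few cells. Nearly all of it lay in cells with a UMI of Adipoq, the adiponectin gene that marks CAR cells, which held 384 of the 385 UMIs in Veh and 305 of the 308 in Doxo. These were also nearly the whole class, 353 of the 368 Veh and 412 of the 428 Doxo cells. Of all UMIs of the class they held 2484971 of 2519319 in Veh and 3295580 of 3368280 in Doxo. Adipoq was also among the markers that named the class, so the split shows no tie of Tnfsf11 to Adipoq.

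Tnfrsf11b, the gene of the decoy, had nearly the opposite distribution. Bone and cartilage fibroblast-like cells held 6781 UMIs in Veh, 613 CPM (598 to 627), and 6661 in Doxo, 620 CPM (605 to 635), which were 69.4% and 74.5% of the library's total. Chondrocyte-like cells held 2390 UMIs, 505 CPM (485 to 525), and 1915, 627 CPM (599 to 656). The fibroblast-like level was the higher of the pair in Veh by a log2 ratio of 0.28 (0.21 to 0.35) and did not differ beyond counting error in Doxo (0.016, −0.06 to 0.09, for chondrocyte-like over fibroblast-like cells). A UMI was found in 62.1% and 59.5% of these fibroblast-like cells (39.8% and 39.3% thinned to 2000 UMIs) and in 86.6% and 88.1% of the chondrocyte-like cells (47.4% and 55.1% thinned). The class level therefore reflects many cells with the transcript. Such shares also move with the level, so no contrast in spread with Tnfsf11 is drawn. The remaining classes were lower, with 104 and 94.4 CPM in arteriolar and endosteal fibroblast-like cells and 63.4 and 13.7 CPM in osteoblast-like cells. CAR-like cells held 59 UMIs in Veh, 23.4 CPM (17.8 to 30.2), and 126 in Doxo, 37.4 CPM (31.2 to 44.5), 0.604% and 1.41% of the library's Tnfrsf11b. Of these, 10 cells carried 69.5% in Veh and 70.6% in Doxo, with up to 16 and 27 UMIs in 1 cell, and the share of CAR-like cells with a UMI was 7.61% and 10.0% (2.28% and 3.84% thinned) against 5.83% and 5.80% (3.13% and 1.64% thinned) of endothelial-like cells. In the endothelial-like cells, too, 19 of 24 and 15 of 20 UMIs lay in 1 cell.

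Csf1 was again highest in CAR-like cells, where it was found in most cells. They held 1918 UMIs in Veh, 761 CPM (728 to 796), and 2466 in Doxo, 732 CPM (704 to 762), 53.8% and 71.0% of the library's Csf1. A UMI was found in 86.1% and 91.6% of them (64.7% and 71.0% thinned). In the chondrocyte-like cells, whose median depths were 19642 and 14678.5 UMIs, 5.04% and 6.93% had one (0% and 1.01% thinned). The unnamed Clic5 and Rab37 cluster followed in Veh with 252 CPM and had 154 CPM in Doxo. The arteriolar and endosteal fibroblast-like cells had 171 and 189 CPM, osteoblast-like cells 90.3 and 80.0, endothelial-like cells 88.5 and 74.3, and bone and cartilage fibroblast-like cells 53.8 and 39.4. Chondrocyte-like cells were the lowest with 18 UMIs (3.80 CPM) and 16 UMIs (5.24 CPM). Osteoblast-like and endothelial-like cells did not differ beyond counting error in either library, nor in Doxo did the unnamed cluster and the cells of the arteriolar and endosteal class.

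Il34, the gene of the other CSF1R ligand, shared the CAR-like maximum at a lower count. CAR-like cells held 398 UMIs in Veh, 158 CPM (143 to 174), and 382 in Doxo, 113 CPM (102 to 125), which were 63.5% and 70.9% of the library's total. The arteriolar and endosteal fibroblast-like cells were next with 99 UMIs (23.1 CPM) and 61 UMIs (28.5 CPM), lower by a log2 ratio of 2.77 (2.45 to 3.11) in Veh and 1.98 (1.60 to 2.41) in Doxo. Bone and cartilage fibroblast-like cells had 9.58 and 7.73 CPM, and each remaining class held at most 15 UMIs in a library. In osteoblast-like cells 2 UMIs were counted in Veh and 0 in Doxo, which allows up to 5.86 CPM there. Of CAR-like cells, 52.4% in Veh and 48.1% in Doxo had an Il34 UMI (28.8% and 17.7% thinned), against 0% and 4.35% of endothelial-like cells (0% in both thinned). Both CSF1R ligands and RANKL thus had their highest level in the CAR-like class, and the RANKL decoy did not.

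**Figure D1:**
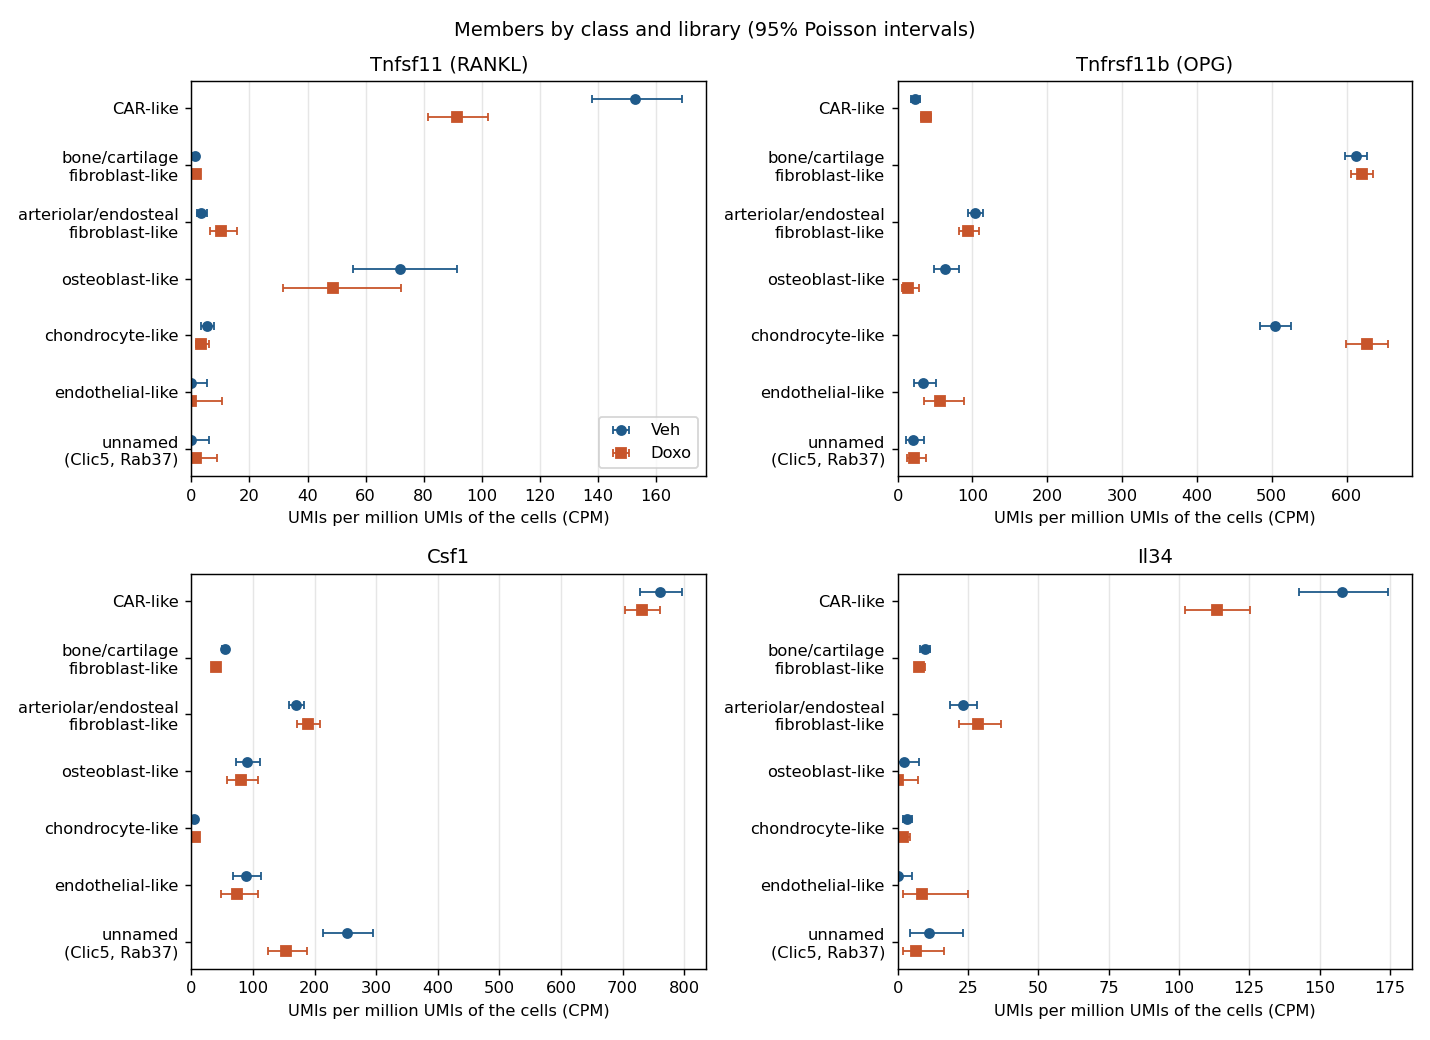
Levels of the 4 genes by class and library, in CPM on linear axes that differ between genes, with points for the level and bars for the exact Poisson 95% interval. Tnfsf11, Csf1 and Il34 were highest in the CAR-like cells of both libraries (153, 761 and 158 CPM in Veh), whereas Tnfrsf11b was in Veh highest in the fibroblast-like cells of bone and cartilage (613 CPM) and level between these and chondrocyte-like cells in Doxo.

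The comparison of Doxo with Veh asked how the supply of each signal differed after chemotherapy. In CAR-like cells Tnfsf11 was lower in Doxo, at 153 CPM in Veh and 91.4 CPM in Doxo, a log2 ratio of −0.74 (−0.96 to −0.52). Tnfrsf11b was higher, at 23.4 and 37.4 CPM (0.67, 0.22 to 1.15). Il34 was lower, at 158 and 113 CPM (−0.48, −0.68 to −0.27), and Csf1 was level, at 761 and 732 CPM (−0.056, −0.14 to 0.03). Past a ratio of 1.5 times were 1 of the 4 genes in the lower direction and 1 in the higher, where 9.66% and 13.3% of the 11507 genes with at least 20 UMIs in the class were. The CAR-like cells of the 2 libraries also differed in markers of other cell types. The 8 osteoblast markers summed to 7595 CPM in Veh and 2301 CPM in Doxo, the 4 erythroid markers to 364 and 1.78 CPM, and the 6 immune markers to 135 and 67.7 CPM. Whether this RNA came from other cells, and its part in the ratios, was not tested. Ctsk, the gene of cathepsin K, made 501 of 547 and 660 of 681 UMIs of the osteoclast markers in these cells, and Ocstamp and Dcstamp, genes of osteoclast fusion, had 0 UMIs in both.

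Elsewhere the differences were few. In arteriolar and endosteal fibroblast-like cells Tnfsf11 was higher in Doxo on 14 and 22 UMIs (1.63, 0.62 to 2.73), the 1 member past 1.5 times there. Of the class's genes, 6.82% were higher and 9.25% lower by that much. With a stricter cell filter the ratio was −0.21. Thinned to 2000 UMIs it was −0.14, but only 4 Veh and 2 Doxo cells then had a Tnfsf11 UMI, too few to read a direction. In osteoblast-like cells Tnfsf11 was not distinguishable (−0.54, −1.29 to 0.12) and Tnfrsf11b was lower, with 59 UMIs in Veh and 7 in Doxo (−2.13, −3.59 to −1.08), where 20.4% of genes were lower by 1.5 times and 11.6% higher, but the ratio was 0.29, 0.23 and 0.52 under a stricter cell filter, a resolution of 0.4 and a choice of cells by markers. In chondrocyte-like cells Tnfrsf11b was higher by 0.31 (0.23 to 0.40), and in bone and cartilage fibroblast-like cells it was level (0.018, −0.03 to 0.07). In the latter Csf1 was lower (−0.45, −0.63 to −0.27) and no member passed 1.5 times, where 4.32% of genes were higher and 9.17% lower. Csf1 was also lower in the unnamed cluster (−0.71, −1.10 to −0.34), where 10.1% of genes were lower by 1.5 times. Over all cells of each library Tnfsf11 was 20.2 CPM in Veh and 18.4 CPM in Doxo (−0.13, −0.33 to 0.06), Tnfrsf11b 393 and 430 CPM (0.13, 0.09 to 0.17) and Csf1 143 and 167 CPM (0.22, 0.15 to 0.29), none of them past the 1.5 times by which 6.63% of genes were higher and 9.63% lower. These whole-library values join the level within each class to the share of cells of each class, which the digestion and the depletion also set.

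**Figure D2:**
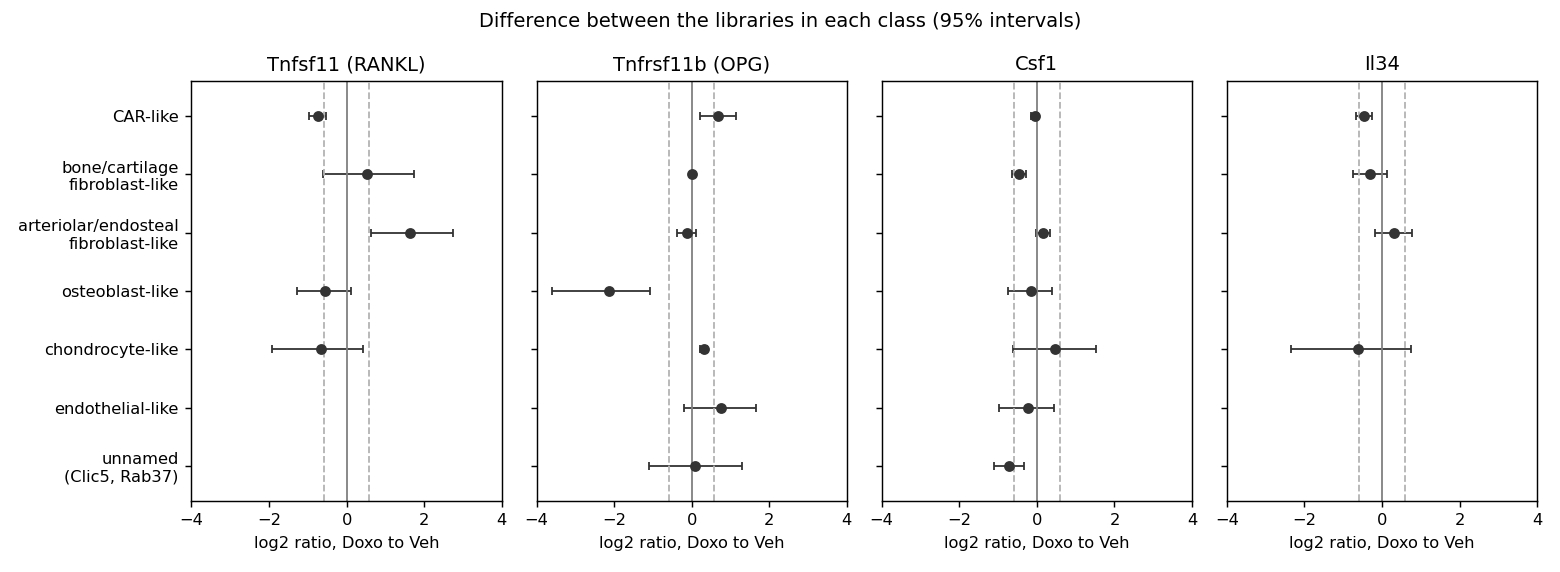
Log2 ratio of Doxo to Veh for each gene and class with its conditional binomial 95% interval, drawn where the libraries together held at least 20 UMIs, with dashed lines at 1.5 times either way. The CAR-like Tnfsf11 ratio (−0.74) and the osteoblast-like Tnfrsf11b ratio (−2.13, and 0.23 to 0.52 under 3 other choices of cells) lie below 0, and the CAR-like Tnfrsf11b ratio (0.67) above it.

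The balance of ligand and decoy transcripts differed between classes by orders of magnitude. In CAR-like cells the Rankl/Opg ratio, Tnfsf11 UMIs over Tnfrsf11b UMIs in the same cells, was 6.53 in Veh and 2.44 in Doxo, a log2 change of −1.41 (−1.94 to −0.90). Osteoblast-like cells had 1.14 and 3.57 (1.58, 0.27 to 3.20). Below 1 stood the arteriolar and endosteal fibroblast-like cells with 0.0315 and 0.109 (1.77, 0.72 to 2.90), the chondrocyte-like cells with 0.0105 and 0.00522 (−0.96, −2.23 to 0.11) and the fibroblast-like cells of bone and cartilage with 0.00177 and 0.00255 (0.51, −0.62 to 1.73). The osteoblast-like change turned direction, to between −3.19 and −0.25, under 4 other choices of cells or clusters. A ratio of UMIs of 2 genes also holds their difference in capture, so its level is a ratio of counts and not of molecules, while its change between libraries does not depend on that. Over all cells the ratio was 0.0515 in Veh and 0.0428 in Doxo (−0.27, −0.47 to −0.07). In the CAR-like class the Tnfrsf11b side rested on few cells, and with CAR-like cells chosen by marker genes alone the Tnfrsf11b ratio of Doxo to Veh was −0.82 and the change of Rankl/Opg 0.18.

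The same cell seldom held both ligand and decoy. Of the CAR-like cells with a Tnfsf11 UMI, 10 of 135 in Veh (7.41%) and 22 of 169 in Doxo (13.0%) also had a Tnfrsf11b UMI, against 7.73% and 8.11% of those without Tnfsf11. Thinned to 2000 UMIs, 0 and 3 cells had both. Csf1 accompanied Tnfsf11 in 124 of 135 cells (91.9%) and 164 of 169 (97.0%). Cells with a Tnfsf11 UMI were deeper, with medians of 7397 against 5256 UMIs in Veh and 8821 against 6248 in Doxo, which moves with such shares.

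The lower Tnfsf11 of CAR-like cells in Doxo coincided with the near absence of 1 small group of cells. At a finer resolution of 0.4, 77 CAR-like cells of Veh and 2 of Doxo formed a cluster of their own, led by Ccl2, Ccl7, Cxcl10 and Ptx3, genes of secreted factors that inflammatory stimuli are known to raise, and by Tnfsf11 itself, with 7 of the 8 CAR markers. Clustering used no member gene, but a cluster set beside the rest is a description and no test. In Veh these cells were 20.9% of CAR-like cells and 27.3% of their UMIs, and they held 248 of the 385 Tnfsf11 UMIs (64.4%). Their Tnfsf11 level was 361 CPM against 74.8 CPM in the other CAR-like cells, a log2 ratio of 2.27 (1.96 to 2.58). Their Csf1 level was 1277 against 568 CPM (1.17, 1.04 to 1.30). By contrast Il34 was 140 against 165 CPM (−0.23, −0.59 to 0.10), and Tnfrsf11b was 10.2 against 28.4 CPM on 7 and 52 UMIs (−1.39, −2.86 to −0.34). Tnfsf11 and Csf1 were thus the members higher in this cluster, while the level of the second CSF1R ligand was not distinguishable. The 2 Doxo cells held 17 Tnfsf11 and 71 Csf1 UMIs.

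Among the other CAR-like cells, 291 in Veh and 426 in Doxo, the Tnfsf11 difference was not found. Tnfsf11 had 137 and 291 UMIs, 74.8 and 87.0 CPM (0.22, −0.08 to 0.52). Tnfrsf11b was 28.4 and 37.7 CPM (0.40, −0.07 to 0.90), and Rankl/Opg was 2.63 and 2.31 (−0.18, −0.77 to 0.38). Csf1 was higher in Doxo, at 568 and 716 CPM (0.34, 0.23 to 0.44). Il34 was lower, at 165 and 114 CPM (−0.54, −0.76 to −0.31), as it was over the whole class. This comparison was chosen after the data were seen, and because the cluster's leading genes include Tnfsf11, leaving it out takes away Veh cells with much Tnfsf11. Whether the cluster is a state of the mice or of the preparation of 1 library cannot be told apart.

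Clustered alone, the CAR-like cells fell into 3 sub-clusters, and where Tnfsf11 was lower or higher in Doxo depended on how they were drawn. A sub-cluster led by Ccl2 and Cxcl1, of 109 Veh and 87 Doxo cells, held 275 and 93 Tnfsf11 UMIs, 274 and 106 CPM (−1.36, −1.72 to −1.02), and 41 and 92 of the class's 59 and 126 Tnfrsf11b UMIs. A sub-cluster led by Fabp4, of 43 and 281 cells, held 14 and 200 Tnfsf11 UMIs, 39.1 and 88.0 CPM (1.12, 0.39 to 2.07). A sub-cluster led by the globin genes Hba-a1 and Hbb-bs and by Bglap2, of 216 and 60 cells, held 96 and 15, 83.1 and 67.5 CPM (−0.26, −1.19 to 0.49). In the Fabp4 sub-cluster Csf1 was higher in Doxo, at 684 and 804 CPM (0.23, 0.04 to 0.43). The sub-clusters were made up unequally by the libraries. With 10 principal components in place of 35, Tnfsf11 was lower in Doxo in none of 3 sub-clusters. It was then 77.5 and 87.7 CPM in 278 and 407 cells (0.18, −0.13 to 0.49), 366 and 594 CPM in 79 and 5 cells (0.72, 0.09 to 1.26), and 17.5 and 47.1 CPM in 11 and 16 cells.

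**Figure D3:**
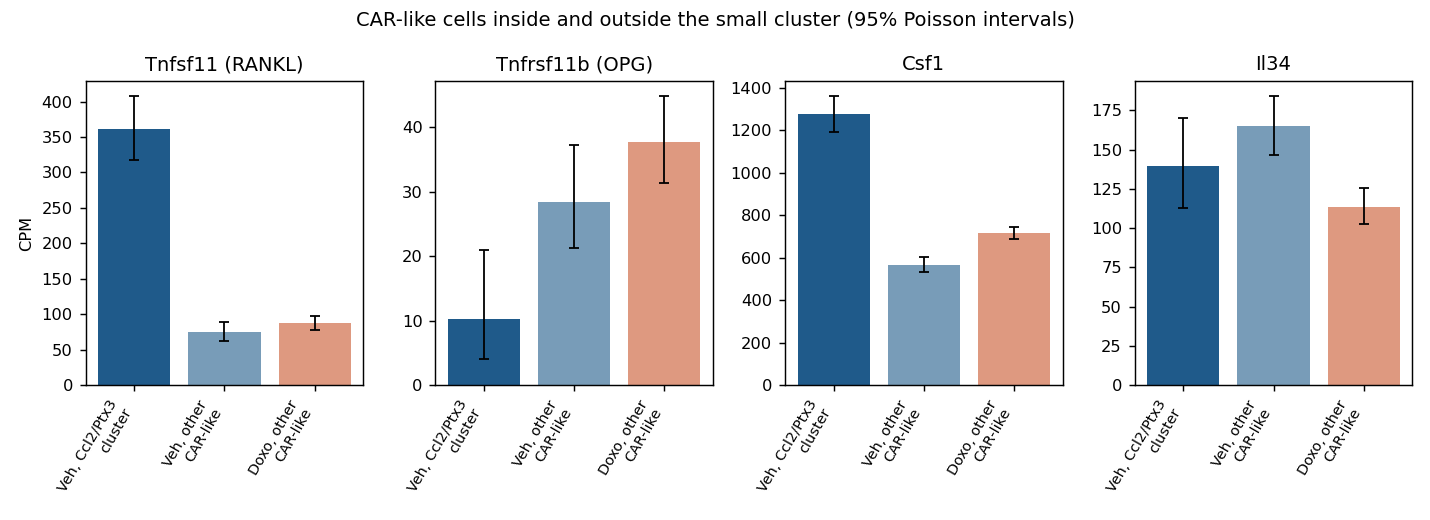
Bars give the level of each gene, in CPM with exact Poisson 95% intervals, in the Veh CAR-like cells of the small Ccl2 and Ptx3 cluster and in the other CAR-like cells of Veh and of Doxo. In Veh the cluster lies above the other cells for Tnfsf11 (361 against 74.8 CPM) and Csf1 (1277 against 568 CPM), and the other cells of both libraries lie close for Tnfsf11.

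The second Tnfsf11 source, the osteoblast-like class, also came down to few cells. The finer clustering drew 28 Veh and 17 Doxo osteoblast-like cells into a cluster led by Tnn and Mmp13, together with cells of both fibroblast-like classes. These 45 cells held 61 of the 67 Veh Tnfsf11 UMIs and all 25 of the Doxo ones, at 286 and 292 CPM (0.049, −0.70 to 0.73). A single cell held 20 of the 61 in Veh and another 17 of the 25 in Doxo. The other 189 and 110 osteoblast-like cells, rich in Bglap, the gene of osteocalcin, at 83007 and 101513 CPM, held 6 and 0 Tnfsf11 UMIs. Tnfrsf11b followed the same split, with 45 and 2 UMIs in the first cells (211 and 23.4 CPM) and 14 and 5 in the others. The osteoblast-like difference in Tnfrsf11b therefore rested on 28 and 17 cells.

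Some of those osteoblast-like cells carried the collagen of hypertrophic cartilage. Col10a1, a marker of hypertrophic chondrocytes, had 1288 UMIs in the Veh cells and 220 in the Doxo cells that fell in the Tnn cluster. In Doxo 180 of the 220 lay in 1 cell. The osteoblast-like cells outside the Tnn cluster had 0 and 1 Col10a1 UMIs. The Bglap level of the osteoblast-like cells inside it was 1655 and 1099 CPM. Outside the CAR-like class, 9 Veh cells and 7 Doxo cells had at least 3 Tnfsf11 UMIs, 71 and 35 UMIs in all. Col10a1 was detected in 7 of the 9 Veh cells, which held 64 of the 71 UMIs, and in 1 of the 7 Doxo cells, which held 17 of the 35. The cell with most Tnfsf11 outside the CAR-like class, in Veh, had 20 Tnfsf11, 120 Col10a1, 81 Ibsp, 84 Mmp13 and 0 Bglap UMIs. The next, in Doxo, had 17 Tnfsf11, 180 Col10a1, 70 Ibsp and 1 Bglap UMIs. These cells were chosen after their values were seen and stand as a description.

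Grouped by this gene, the 112 Veh and 98 Doxo cells outside the CAR-like class with a Col10a1 UMI had 69 and 20 Tnfsf11 UMIs, 41.9 and 18.0 CPM, and the 2008 and 1962 cells without one had 49 and 55, 2.37 and 3.37 CPM. The cells with Col10a1 were grouped after the cells with most Tnfsf11 had been seen, and 7 of them held 64 of the 69 Veh UMIs and 1 held 17 of the 20 Doxo UMIs, so no difference between the libraries is drawn from them. Tnfrsf11b was high in the cells with Col10a1 too, at 707 and 934 CPM, so that their summed ligand counts stood far below their summed decoy counts. This did not hold in the few cells with most of the ligand. The 7 Veh cells had 20, 10, 8, 8, 8, 5 and 5 Tnfsf11 UMIs beside 1, 10, 5, 1, 7, 9 and 9 of Tnfrsf11b. The 1 Doxo cell had 17 beside 0. Within the chondrocyte-like class, the cells with Col10a1 or Ihh, the gene of the signal of prehypertrophic chondrocytes, held 16 and 3 of its 25 and 10 Tnfsf11 UMIs, and Tnfrsf11b there was 486 CPM in Veh and 690 CPM in Doxo (0.50, 0.36 to 0.65). In the chondrocyte-like cells without them Tnfrsf11b was 512 and 588 CPM (0.20, 0.09 to 0.31).

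Splitting the osteoblast-like cells by the osteocyte genes Dmp1, Phex, Mepe and Sost put 55 of 67 Veh and 22 of 25 Doxo Tnfsf11 UMIs in the cells with a UMI of any of them, at 96.5 and 61.8 CPM, and 12 and 3 UMIs in the cells without (33.3 and 19.2 CPM). The 55 and 22 UMIs lay in 10 Veh and 4 Doxo cells, with up to 20 and 17 in 1 cell. Cells with a UMI of any of the 4 genes were deeper, with medians of 3406 and 3310 against 2996 and 2367.5 UMIs. As given above, 61 of the 67 and all 25 UMIs lay in the cells of the Tnn cluster, so the split does not place Tnfsf11 in osteocyte-like cells.

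The finer clusters also placed the decoy. Tnfrsf11b was highest in a bone and cartilage fibroblast-like cluster of 105 and 111 cells that passed on Cilp, Prg4 (lubricin) and Chad (chondroadherin), with 794 and 771 CPM. A cluster of 584 and 674 cells that passed on Cilp, Fmod, Comp and Thbs4 had 602 and 648 CPM, and an unnamed cluster of 315 and 494 cells led by Msmp and Rbp4 had 545 and 525 CPM. All of these held at most 8 Tnfsf11 UMIs in a library. In a cluster of 60 and 41 cells that passed on Tnmd, a gene of tendon, Tnfrsf11b was 65.5 and 86.0 CPM, no Tnfsf11 UMI was found, and Il34 reached 38.2 and 37.6 CPM on 14 and 7 UMIs. The Tnn cluster as a whole, 188 and 114 cells, had 75 and 41 Tnfsf11 UMIs (42.6 and 48.5 CPM) beside 392 and 498 CPM of Tnfrsf11b. Its arteriolar and endosteal fibroblast-like cells, 127 and 70, held 12 of that class's 14 Tnfsf11 UMIs in Veh and 13 of 22 in Doxo, and a Tnfrsf11b level of 242 and 265 CPM against 42.7 and 29.1 CPM in the rest of the class. In the 33 and 27 bone and cartilage fibroblast-like cells of the Tnn cluster Tnfrsf11b reached 1383 and 1568 CPM on 327 and 262 UMIs, above every whole finer cluster. Csf1 in the arteriolar and endosteal class lay instead outside the Tnn cluster, at 216 and 237 CPM against 66.4 and 64.0 CPM inside it.

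Over the 7 classes of both libraries, 14 points that share their libraries, the genes whose log2(CPM + 1) ran most like a member's were named among 10694 genes with at least 200 UMIs. For Tnfsf11 they were Tnfrsf19, another receptor gene of the TNF receptor family (Pearson r 0.95), the sphingosine-1-phosphate receptor gene S1pr3 (0.94) and Obsl1 (0.92). For Tnfrsf11b they were Zfp385c (0.94), Nrtn (0.94), the gene of neurturin, and Chad (0.93), for Csf1 Plekhh3 (0.95), Gadd45gip1 (0.95) and Flna (0.94), the gene of filamin A, and for Il34 Eya2 (0.96), Suclg1 (0.95) and Sned1 (0.94). Between members the values were 0.64 for Csf1 and Il34, 0.38 for Tnfsf11 and Csf1, 0.37 for Tnfsf11 and Il34, and −0.72 for Tnfrsf11b and Csf1. These are descriptions of the class levels and carry no test.

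**Figure D4:**
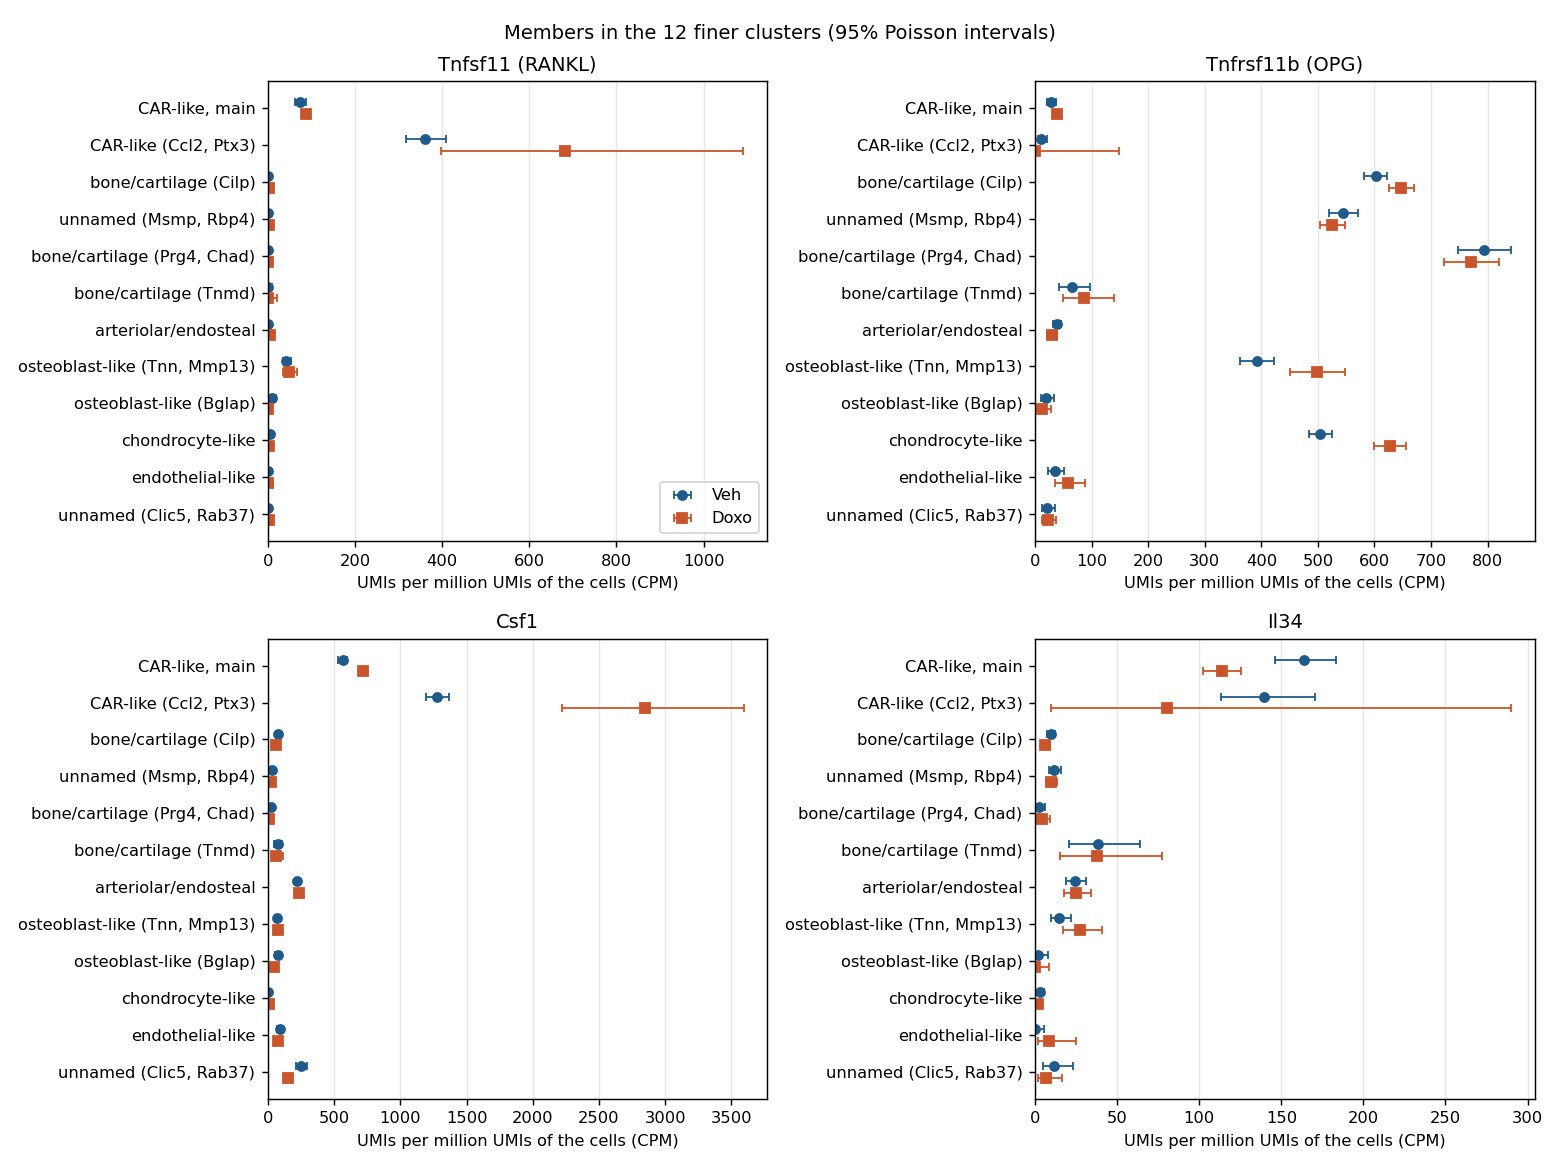
Levels of the 4 genes in the clusters found at a resolution of 0.4, by library, in CPM on linear axes with exact Poisson 95% intervals. Tnfsf11 is highest in the small Ccl2 and Ptx3 CAR-like cluster (361 CPM in Veh, and 17 UMIs in the 2 Doxo cells) and Tnfrsf11b in the Prg4 and Chad cluster (794 CPM in Veh).

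The other genes of the pathway were read in CAR-like cells from lists of receptors, proteases, regulators and transcription factors, beside the 13.3% of all genes higher and 9.66% lower by 1.5 times in that class. Of the receptors and binding partners, Tnfrsf11a, which encodes RANK, had 0 UMIs in both libraries, which allows up to 1.19 CPM in Veh and 0.891 CPM in Doxo, and Csf1r, the receptor of both CSF1 and IL-34, had 24 and 35 UMIs. None of the 4 with at least 20 UMIs differed by 1.5 times. Sdc1, which encodes syndecan-1, a binding partner of IL-34, was higher in CAR-like cells than in any other class, at 208 and 210 CPM, while Ptprz1, another IL-34 receptor, was highest in osteoblast-like cells (160 and 172 CPM). Tnfsf10, the gene of TRAIL, which OPG also binds, was highest in endothelial-like cells (107 and 109 CPM). Of 6 proteases that can release membrane-bound RANKL or CSF1, 0 were higher and 1 lower, and the shedding enzymes Mmp14, Adam10 and Adam17 were within 1.5 times.

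Ligands and enzymes that raise Tnfsf11 split in direction. Of 8 with at least 20 UMIs in CAR-like cells, 3 were higher in Doxo and 4 lower (median log2 ratio −0.53, all genes 0.06), against 13.3% and 9.66% of all genes. Il6 had 214 UMIs in Veh and 33 in Doxo (−3.10, −3.69 to −2.58) and Lif, another cytokine gene of the gp130 family, 66 and 5 (−4.01, −5.81 to −2.85). In Veh both lay mostly in the small cluster, since outside it Il6 had 11 UMIs in Veh and 20 in Doxo (−0.034) and Lif 6 and 5. Il11 did not follow this, with 36 and 7 UMIs in the class (−2.70, −4.19 to −1.59). Outside the small cluster it had 30 and 7 (−2.89, −4.40 to −1.75). Wnt5a, a Wnt ligand, was higher at 26 and 72 UMIs (1.03, 0.39 to 1.76) and at 0.87 outside the cluster. Osm, the gene of oncostatin M, had 0 UMIs in Veh and 44 in Doxo. Of 11 receptors through which such signals act, 2 were higher and 2 lower, close to those shares for so short a list. Il1r1, the interleukin-1 receptor, was lower at 444 and 359 UMIs (−0.73, −0.93 to −0.52, and −0.46 outside the cluster), as was the vitamin D receptor gene Vdr at 68 and 59 (−0.62, −1.15 to −0.10, and −0.21 outside). Pth1r, the parathyroid hormone receptor, was 127 and 163 CPM (0.36, 0.16 to 0.56) and short of 1.5 times.

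Transcription factors and other regulators differed with the cluster in part. Of 13 transcription factors tied to Tnfsf11 or Tnfrsf11b, 1 was higher and 1 lower, no more than the 13.3% and 9.66% of all genes. Ebf2, whose product is known to control Tnfrsf11b in osteoblasts, was higher at 49 and 107 UMIs (0.70, 0.21 to 1.23), and Nfkb1, an NF-kappa-B subunit gene, lower at 618 and 352 (−1.23, −1.42 to −1.04). Outside the cluster these were 0.46 and −0.32, and 0 of the 13 passed 1.5 times. Of 11 other secreted or surface regulators, 2 were higher and 2 lower, near the same shares. Sfrp1, a Wnt antagonist, was higher at 446 and 1337 UMIs (1.16, 1.01 to 1.32) and Spp1, the gene of osteopontin, at 1341 and 3772 (1.07, 0.98 to 1.16), with 0.97 and 1.02 outside the cluster. Ccl2, a monocyte chemokine, had 7592 and 603 UMIs (−4.07, and −1.44 outside the cluster), and Bmp2 was lower at 310 and 178 (−1.22, and −0.31 outside). Such differences were not particular to CAR-like cells. In chondrocyte-like cells Il6 was −2.67, Lif −5.00, Nfkb1 −1.53 and Bmp2 −1.02, and in endothelial-like cells Ccl2 was −5.90. Elsewhere they were smaller or reversed, with Nfkb1 at −0.29 in bone and cartilage fibroblast-like cells and Ccl2 at 3.99 in the unnamed cluster. Of 6 osteoclast genes in CAR-like cells, 5 were lower and 0 higher (median −1.46), against 9.66% of all genes lower and 13.3% higher. Among the lower was Car2, the gene of carbonic anhydrase II, at 67 and 26 UMIs (−1.77, −2.50 to −1.11). Car2 was also lower in chondrocyte-like (−2.65) and osteoblast-like cells (−1.08), but not distinguishably in endothelial-like cells (−0.26, −1.17 to 0.53). Whether RNA from other cells, such as the erythroid RNA given above, had a part in this was not tested. Outside the cluster 4 of the 6 osteoclast genes were lower in CAR-like cells, where 9.83% of 11336 genes were lower by 1.5 times and 9.33% higher.

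**Figure D5:**
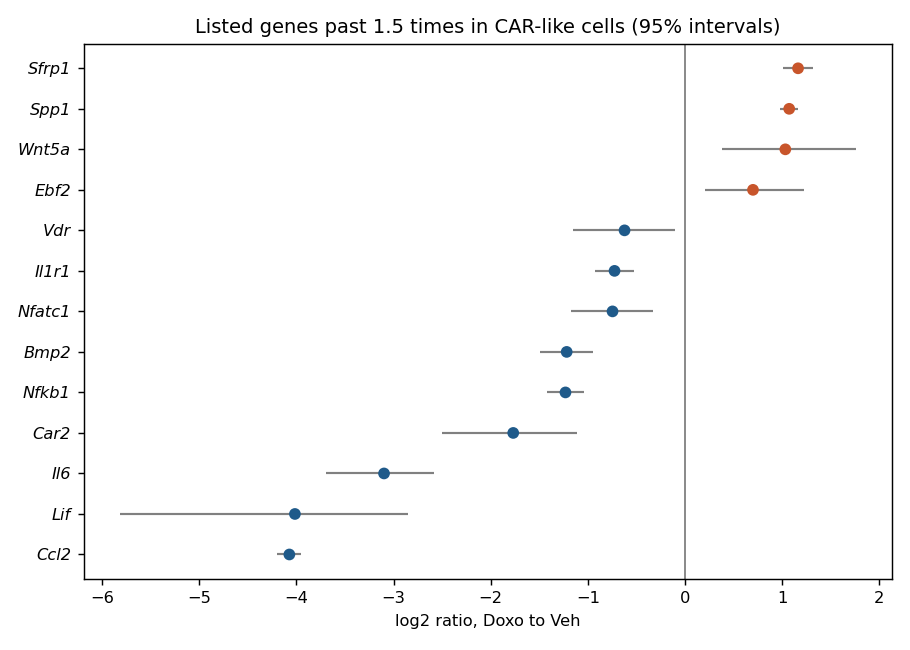
Log2 ratio of Doxo to Veh in CAR-like cells for the listed pathway genes with at least 50 UMIs that were past 1.5 times, with conditional binomial 95% intervals, over all CAR-like cells. Il6 (−3.10), Lif (−4.01) and Ccl2 (−4.07) lie farthest below 0, and Sfrp1 (1.16) and Spp1 (1.07) above it.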

How the data were processed

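Single-cell RNA of 2 mouse libraries was analysed, 1 per condition. Per the paper's methods and the submitters' processing notes, the authors prepared 10x Genomics 3′ v3 libraries, aligned reads with Cell Ranger to the mouse genome (GRCm38, mm10) and normalized cells in Partek. Versions and the strand setting are not given in the sources used here. The deposited values were log2 values of UMI counts scaled to a fixed total per cell, with the log scaling applied on top of an earlier one. Both steps were undone per cell. Of the nonzero values of up to 50 UMIs, 99.944% in Veh and 99.939% in Doxo came out whole within 0.1, among them all values of the 4 genes, and the values were rounded to whole UMIs.

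The cell filter (genes between 200 and 10000, UMIs between 100 and 100000, mitochondrial share up to 10%) kept all deposited cells. They were clustered with Seurat 5.3.0 in R 4.3.3 (2000 variable genes without the 4 members, 35 principal components, resolution 0.1), first to set the endothelial cells apart and then without them. A cluster was named where 3 or more of a class's markers had a UMI in 10% of its cells or more and a level 1 log2 unit or more over that of the remaining cells. Names rebuilt in this way may differ from the study's. Scrublet (scanpy 1.11.5) marked 9 Veh and 3 Doxo cells (0.362% and 0.121%) as doublets, too few for the caller to have worked, and none was removed.

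UMIs were summed per class and library. Levels are per 1000000 UMIs, and log2 ratios had 0.5 UMI added to each sum. Intervals at 95% were computed with scipy 1.17.1. No ratio is given under 20 UMIs, except after thinning or with other choices of cells, and a count of 0 was bounded by 3 UMIs. Pathway genes were named as differing at 50 UMIs or more and past 1.5 times, apart from Osm and Il11. Thinning drew 2000 UMIs per cell and left out shallower cells. The ratio script was tested on simulated data. The members, markers, lists and splits were chosen with earlier results of these data known. Other cell filters, cluster settings, cell choices, scalings and pseudocounts were tried.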

Additional observations from a re-analysis of the deposited data

Results flagged for a closer look

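The difference between the libraries ran in opposite directions in a pair of classes for 2 of the genes, and the difference between the classes was not tested. For Tnfsf11 the log2 ratio of Doxo to Veh was 1.63 in arteriolar and endosteal fibroblast-like cells, on 14 and 22 UMIs, and −0.74 in CAR-like cells, on 385 and 308. For Tnfrsf11b it was 0.67 in CAR-like cells, on 59 and 126 UMIs, and −2.13 in osteoblast-like cells, on 59 and 7. Each of these turned direction under at least 1 other choice of cells, the CAR-like Tnfsf11 ratio when the small Ccl2 and Ptx3 cluster was left out. With 1 library per condition, no spread between mice stands behind either pair.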

How the results depend on the processing

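CAR-like cells had the highest level of Tnfsf11, Csf1 and Il34 in both libraries under each of 10 settings. Tnfrsf11b was in Veh highest in the fibroblast-like cells of bone and cartilage under all 10 settings, and in Doxo under 4 of them, with chondrocyte-like cells highest under the other 6. In CAR-like cells, leaving out the small Ccl2 and Ptx3 cluster, a choice made after seeing the data, gave log2 ratios of Doxo to Veh of 0.22 for Tnfsf11 and 0.34 for Csf1, and a Rankl/Opg change of −0.18. Cells chosen by marker genes gave −0.82 for Tnfrsf11b and a Rankl/Opg change of 0.18. Csf1 was 0.041 after thinning and 0.055 with every cell weighing the same, and Il34 was −0.81 after thinning. Elsewhere the direction turned for Tnfsf11 in arteriolar and endosteal fibroblast-like cells, to −0.21 with a strict filter and −0.14 thinned. The strict filter asked for 1000 genes and no more than 5% mitochondrial UMIs. For Tnfrsf11b in osteoblast-like cells it turned to 0.29 (strict filter), 0.23 (resolution of 0.4) and 0.52 (cells chosen by markers). For Rankl/Opg in osteoblast-like cells it turned to −3.19 (strict filter), −2.30 (20 principal components), −0.25 (resolution of 0.4) and −0.40 (cells chosen by markers). In thinned chondrocyte-like cells Tnfsf11 (0.71), Il34 (0.23) and Rankl/Opg (0.35) turned. The counts behind these thinned values were too few to read a direction. Tnfsf11 had a UMI in 4 Veh and 2 Doxo thinned arteriolar and endosteal fibroblast-like cells. Among thinned chondrocyte-like cells it had one in 1 Veh and 2 Doxo cells with Col10a1 or Ihh, and in 0 and 1 without. Il34 had one in 2 Veh and 2 Doxo cells without Col10a1 or Ihh. The cause of the turns was not tested. Of the other results, 148 moved by more than their interval and 487 did not. The osteoblast-like Tnfsf11 level in Veh was 72.0 CPM as reported and 8.86 without called doublets, 10.2 with the members among the variable genes and 8.55 with 20 principal components. When the CAR-like cells were clustered alone with 35 principal components, none of the 3 sub-clusters came nearly all from 1 library, so the cluster left out above was taken from the finer clustering of all cells. No paired analysis was possible because each condition had 1 library, and no replicate could be left out.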
